A study of Mus musculus with 18 samples.

Results

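Interferon response genes are the transcripts that cells raise when an interferon, a cytokine released on sensing foreign or misplaced nucleic acid, reaches its receptor. This report describes 36 such genes, chosen by symbol, among the 21756 genes with a value per library in epididymal white adipose tissue (eWAT). All 36 were found, and all 36 passed the filter on low values, among 19012 genes that did so. Of the members, 26 are mainly induced by type I interferon and 10 mainly by type II interferon.

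RNA-seq was carried out on eWAT of 5 Control f/f mice, which carry floxed Parkin alleles, and of 5 ParkinAdi mice, in which the floxed alleles were combined with an adiponectin Cre. Mice were male, on a C57BL/6J background, about 4 to 6 months old and fed a high-fat diet (HFD) with 45% fat, with 1 library from each mouse. Parkin is an E3 ubiquitin ligase that marks damaged mitochondria for removal. The Cre acts in adipocytes, whereas a fat pad also holds macrophages, lymphocytes, endothelium and mesothelium. A further experiment used wild-type male mice, 2 months old, given HFD for 4 weeks and then injected with AAV8-Nqo1 in the left eWAT pad and with AAV8-Control in the other pad of the same animal, and killed 4 weeks later. The labels list 4 pads for each vector. Nqo1 is a quinone reductase, and the vector drives it from an adiponectin promoter. Every pad of that experiment received a virus. In bulk tissue, fewer cells of a type and less RNA per cell cannot be told apart.

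Type I interferons act through Ifnar1 and Ifnar2 and the kinases Jak1 and Tyk2, and lead to a complex with Stat2 and Irf9 that binds the interferon-stimulated response element (ISRE). Type II interferon, made by T and NK cells, acts through its own receptor and on the gamma-activated site (GAS). Cytosolic DNA, which includes mitochondrial DNA that has left the organelle, is sensed by cGAS and STING, and viral DNA taken up into endosomes is sensed by Tlr9. Both routes can end in type I interferon. Neither mitochondrial DNA in the cytosol nor sensing of the vector was measured in these libraries, so their part in any value given here was not tested.

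A sense of how these genes are controlled is given by the promoters of the 3 type I and the 3 type II members that, among the members with a window in the reference, varied most between mice of a genotype. Windows run from 250 bases before to 50 bases after the annotated start (RefSeq, GRCm38.p6). They lie at chr4:156200769-156201068 on the minus strand (Isg15), chr5:120777610-120777909, minus (Oas3), chr5:120907476-120907775, minus (Oas1a), chr17:34187281-34187580, minus (Psmb9), chr17:34197945-34198244, plus (Psmb8) and chr11:58199306-58199605, plus (Igtp). Capitals mark matches to the ISRE core GAAANNGAAA or to the GAS letters TTCNNNGAA, where N is any base and both strands were read.
Isg15: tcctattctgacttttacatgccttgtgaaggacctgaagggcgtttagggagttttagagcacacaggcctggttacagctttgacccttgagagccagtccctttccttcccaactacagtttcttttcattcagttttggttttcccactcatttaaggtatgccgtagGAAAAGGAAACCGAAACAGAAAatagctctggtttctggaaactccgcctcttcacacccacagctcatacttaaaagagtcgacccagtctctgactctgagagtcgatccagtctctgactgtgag
Oas3: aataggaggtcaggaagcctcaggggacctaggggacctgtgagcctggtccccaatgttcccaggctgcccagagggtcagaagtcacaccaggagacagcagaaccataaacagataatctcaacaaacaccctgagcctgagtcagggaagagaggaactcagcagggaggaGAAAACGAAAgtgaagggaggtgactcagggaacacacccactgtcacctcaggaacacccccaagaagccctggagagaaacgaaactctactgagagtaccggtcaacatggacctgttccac
Oas1a: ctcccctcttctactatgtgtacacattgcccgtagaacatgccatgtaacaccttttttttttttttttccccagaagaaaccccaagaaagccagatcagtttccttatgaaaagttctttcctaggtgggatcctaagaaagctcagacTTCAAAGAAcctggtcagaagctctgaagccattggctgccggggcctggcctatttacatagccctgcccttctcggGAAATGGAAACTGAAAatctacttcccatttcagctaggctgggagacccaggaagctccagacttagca
Psmb9: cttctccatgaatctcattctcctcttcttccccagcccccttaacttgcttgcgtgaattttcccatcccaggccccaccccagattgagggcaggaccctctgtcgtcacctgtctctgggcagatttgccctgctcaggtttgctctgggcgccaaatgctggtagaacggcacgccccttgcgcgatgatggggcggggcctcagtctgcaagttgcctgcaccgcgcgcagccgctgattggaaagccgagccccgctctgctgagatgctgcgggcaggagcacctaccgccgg
Psmb8: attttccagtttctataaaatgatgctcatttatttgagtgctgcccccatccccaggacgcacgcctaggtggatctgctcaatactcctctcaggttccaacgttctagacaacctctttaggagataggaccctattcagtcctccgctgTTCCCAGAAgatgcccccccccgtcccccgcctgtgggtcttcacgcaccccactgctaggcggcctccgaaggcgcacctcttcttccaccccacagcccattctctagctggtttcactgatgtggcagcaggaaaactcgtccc
Igtp: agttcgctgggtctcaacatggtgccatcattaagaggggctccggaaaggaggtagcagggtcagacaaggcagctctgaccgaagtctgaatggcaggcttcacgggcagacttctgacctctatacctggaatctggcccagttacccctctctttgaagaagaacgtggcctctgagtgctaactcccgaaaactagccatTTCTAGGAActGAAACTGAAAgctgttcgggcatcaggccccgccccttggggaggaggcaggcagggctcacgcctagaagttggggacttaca

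The Isg15 window held 3 ISRE cores that overlap each other, between 78 and 57 bases before the start, and Oas1a held 2, between 20 and 5 bases before it. Oas3 held 1 ISRE core, 75 to 66 bases upstream. In Igtp a GAS match at 45 to 37 bases stood next to an ISRE core at 34 to 25 bases. Psmb8 held a GAS match alone, 97 to 89 bases upstream, and Oas1a a further one at 98 to 90 bases. The Psmb9 window held neither. Of the 36 members, 29 had a window, and 15 of these 29 held an ISRE core (51.7%) against 3.44% of all 32851 windows of the same length. A GAS match stood in 8 of the 29 (27.6%) against 8.3% of all windows. The ISRE core was found in 10 of 20 type I and in 5 of 9 type II windows, and GAS in 4 of 20 and 4 of 9. In the Bst2 window 1 ISRE core and 1 GAS match overlapped. A match is a run of letters, not a measured binding site, and the members were chosen as interferon genes.

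Values per library are regularized log values (rlog, log2 scale), which shrink the differences of low genes, and depth per library is unknown. Control f/f libraries are numbered C1 to C5, and those of ParkinAdi mice P1 to P5. P2 stood apart by the epididymal transcript Ces5a (20.05, against 5.59 to 8.45 in the other 9). P2 and P5 both stood apart by the mean of 7 epididymal markers. This mean was 9.69 in P2 and 9.55 in P5, and 4.93 to 6.54 in the other libraries. Libraries further fell into 2 sets by gene length. In C1, C2, C3, P1, P2 and P5 long genes read high, with a Spearman correlation across genes of 0.376 to 0.510 between summed exon length and the deviation from the gene's mean, and in C4, C5, P3 and P4 they read low (-0.537 to -0.469). These are called the positive and the negative set. Genes are not independent replicates, and the labels name 2 sequencing pools without assigning libraries to them. The mean of the adipocyte markers was 15.56 to 15.79 in the 4 libraries of the negative set and 14.75 to 15.58 in the other 6, and that of the endothelial markers 10.36 to 10.46 against 10.62 to 10.93. The part of tissue makeup in this split was not tested. The comparison over all members is given with and without P2 and P3 and within each set.

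Across the 10 libraries no interferon response gene separated the genotypes. Of the 36 members, 0 passed the limma test at adjusted p 0.05 (0% of all genes tested), and their adjusted p was 0.88 or more. At an unadjusted p under 0.05, 1 member was higher (Irf7; 1.46% of all genes were called higher) and 0 were lower (3.56% of all genes). The difference of means, ParkinAdi minus Control f/f, was above 0 in 23 members and below 0 in 13, where 56.9% of all genes were above 0. The median difference was 0.087 over the members and 0.030 over all genes. Differences ranged from -0.30 (Oasl1) to 0.42 (Irf7). In 0 members did the values of the 2 genotypes fail to overlap, against 1.06% of all genes.

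**Figure D1:**
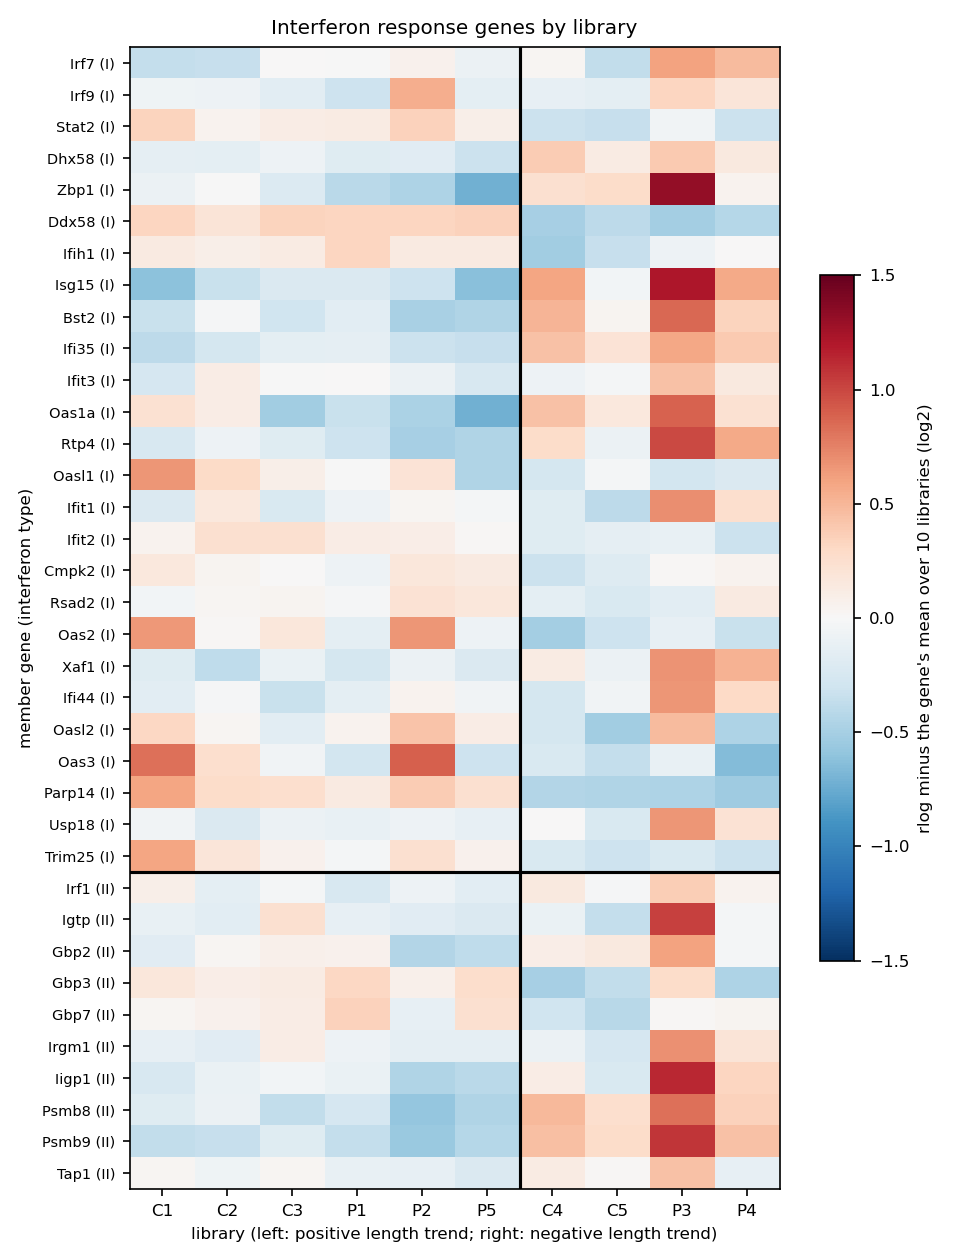
Heat map of the 36 members (rows, type I above and type II below the line) in the 10 libraries (columns, positive length trend left and negative right), coloured by rlog minus the gene's mean over libraries, in log2 units. The P3 column is the reddest, with the highest value in 22 of 36 members, and long genes such as Ddx58 and Parp14 are blue in all 4 libraries on the right.

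Among the transcription factors, Irf7 (GRCm38 chr7:141262706-141266481, minus strand), the factor that amplifies type I interferon production, showed the highest difference of any member. Its rlog values were 8.55, 8.57, 8.92, 8.94 and 8.55 in C1 to C5 and 8.91, 8.97, 9.52, 9.39 and 8.83 in P1 to P5. P3 and P4 lay above every control, and P1, P2 and P5 lay within the control range or just above it. The mean was 8.71 ± 0.21 (SD, n = 5) in Control f/f and 9.12 ± 0.31 (SD, n = 5) in ParkinAdi, a difference of 0.42 (SE 0.17; limma adjusted p = 0.88; exact permutation p = 0.0556, two-sided). Without P3 the difference was 0.32. Irf9, the DNA-binding subunit of the type I complex, was at 9.50, 9.50, 9.41, 9.45 and 9.42 in the controls and at 9.26, 10.11, 9.90, 9.75 and 9.42 in ParkinAdi. The controls were close together (SD 0.043) while the ParkinAdi mice were spread on both sides of them (SD 0.35), with P2 highest (difference 0.23, exact permutation p = 0.159; 0.13 without P2 and -0.020 with library weights). Stat2, its partner in that complex, and Irf1, a mainly type II induced factor that activates antigen presentation genes, differed by 0.070 and -0.022 (0.092 and -0.12 without P3).

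Of the 4 nucleic acid sensors, 0 passed the test and 2 were above 0. Ifih1 (MDA5), which binds long double-stranded RNA, was at 9.44, 9.40, 9.43, 8.79 and 8.96 in Control f/f and at 9.63, 9.44, 9.23, 9.31 and 9.44 in ParkinAdi. The low values were those of C4 and C5, both of the set in which long genes read low. P3 and P4 of that set were at 9.23 and 9.31. Ifih1 has 8165 exon bases. Its difference was 0.21 (SE 0.16, exact permutation p = 0.230), and 0.19 with the length trend removed. Dhx58 (LGP2), a helicase that modulates the other RNA sensors, gave 7.42, 7.41, 7.48, 7.93 and 7.67 in the controls and 7.37, 7.39, 7.95, 7.70 and 7.23 in ParkinAdi, overlapping throughout (difference -0.055, exact permutation p = 0.706). Ddx58 (RIG-I), the sensor of RNA ends, differed by 0.019. It followed the library set more than the genotype, since its 6 values in the positive set were 9.38 to 9.54 and its 4 values in the negative set 8.69 to 8.80. Zbp1, which senses Z-form nucleic acid and was named after its values were seen, gave 7.69, 7.77, 7.57, 8.02 and 8.05 in Control f/f and 7.38, 7.32, 9.09, 7.83 and 7.06 in ParkinAdi. P3 alone stood above the controls there, and the difference moved from -0.086 to -0.43 without it.

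The 17 antiviral effectors had a median difference of 0.10, with 11 above 0, and none passed the limma test at adjusted p 0.05. Without P3 the median was 0.0075, with 9 above 0. Ifit1 (chr19:34640871-34650009, plus strand), which binds RNA lacking the cap methylation of the host, was at 7.54, 7.90, 7.52, 7.56 and 7.35 in Control f/f and at 7.67, 7.78, 8.44, 8.0 and 7.72 in ParkinAdi. P3 and P4 were above all controls, but C2 was above P1, P2 and P5. The difference was 0.35 (SE 0.18, exact permutation p = 0.0635), and it was 0.22 without P3 and -0.061 with library weights. Ifi44, an interferon-inducible protein with antiviral activity, gave 6.12, 6.26, 5.95, 6.01 and 6.22 against 6.12, 6.33, 6.94, 6.58 and 6.22. Here P2, P3 and P4 were above every control and P1 and P5 within their range (difference 0.33, exact permutation p = 0.0635; 0.20 without P3 and 0.029 with library weights). Oasl1, which in mice restrains translation of Irf7 mRNA, had the lowest difference, with 5.98, 5.61, 5.41, 5.07 and 5.29 in the controls and 5.32, 5.53, 5.05, 5.11 and 4.87 in ParkinAdi. The groups overlapped, with P5 lowest and C1 highest (difference -0.30, SE 0.21, exact permutation p = 0.159). Isg15, a ubiquitin-like protein that is conjugated to other proteins, was named after its values were seen. Its 10 values ran from 6.28 (P5) to 8.12 (P3), with C4 (7.51) and P4 (7.48) next, so its high libraries were those of the negative set from both genotypes. It is the shortest member, with 756 exon bases. The remaining effectors lay between -0.18 (Oas3, a synthetase of the RNase L activator) and 0.25 (Xaf1, a promoter of apoptosis), with Rsad2 (viperin) at 0.14, Oasl2 at 0.24, Bst2 (tetherin) at 0.038, Oas1a at -0.16 and Parp14, an ADP-ribosyltransferase, at -0.095. Without P3 the differences were 0.11 in Xaf1, 0.15 in Oasl2, -0.17 in Bst2 and -0.40 in Oas1a.

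**Figure D2:**
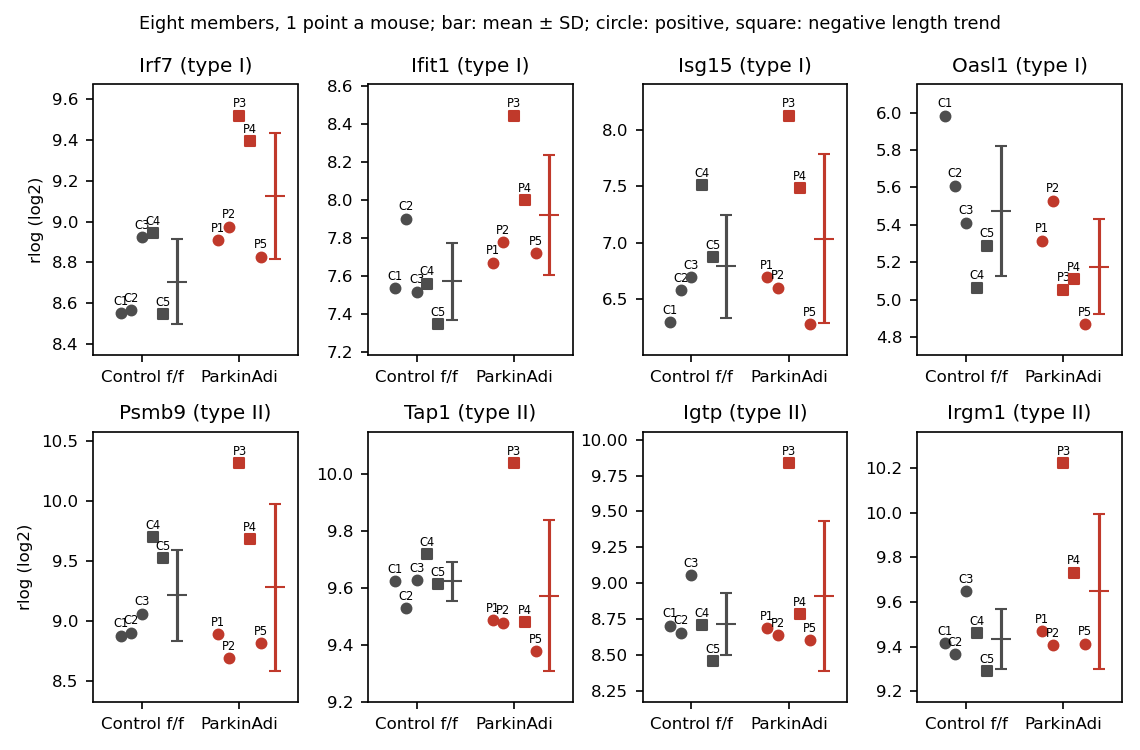
Rlog values (log2) of 8 members in each mouse, Control f/f in grey and ParkinAdi in red, with circles for the positive and squares for the negative length trend and bars for the mean and SD of 5 mice. P3 is the highest ParkinAdi mouse in every panel but Oasl1, and the control and ParkinAdi values overlap in all 8.

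Both regulators of signalling overlapped between genotypes. Usp18, which removes Isg15 from proteins and blocks the type I receptor, was at 6.83, 6.67, 6.79, 6.89 and 6.66 in Control f/f and at 6.77, 6.81, 7.54, 7.11 and 6.76 in ParkinAdi. Only P3 and P4 exceeded the control range (difference 0.23, exact permutation p = 0.198), and without P3 the difference was 0.092. Trim25, the ubiquitin ligase known for its role in RIG-I signalling, gave 10.85, 10.44, 10.32, 10.03 and 9.95 against 10.23, 10.50, 10.03, 9.94 and 10.33. Its 4 lowest values were the 4 libraries of the negative set, in equal number from each genotype (difference -0.11, exact permutation p = 0.579).

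The 6 interferon-inducible GTPases, which attack the vacuoles of intracellular pathogens, had a median difference of 0.20, with 5 above 0 and 0 called. Without P3 it was 0.016, with 3 above 0. Irgm1, a regulator of the other immunity-related GTPases, was at 9.42, 9.37, 9.65, 9.46 and 9.29 in Control f/f and at 9.47, 9.40, 10.22, 9.73 and 9.41 in ParkinAdi. P3 and P4 were above the controls (difference 0.21, exact permutation p = 0.230), and without P3 the difference was 0.069. Gbp7, a guanylate-binding protein, gave 9.32, 9.36, 9.41, 9.0 and 8.88 against 9.65, 9.17, 9.31, 9.34 and 9.53. In this gene P1 and P5, not P3, were highest (difference 0.21, exact permutation p = 0.183). Igtp (Irgm3) and Iigp1 (Irga6), named after their values were seen, reached 9.84 and 11.23 in P3, where their control values were 8.46 to 9.06 and 9.85 to 10.21. Without P3 their differences went from 0.19 to -0.038 and from 0.20 to -0.059. Gbp2 and Gbp3 differed by -0.070 and 0.19, and by -0.23 and 0.14 without P3. The exons of Igtp share 162 bases with Irgm2, and those of Gbp7 share 637 bases with a pseudogene, so reads of these could be split.

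In the 3 antigen processing genes the genotypes overlapped and P3 was again highest. Psmb9 (LMP2), a catalytic subunit of the immunoproteasome, was at 8.88, 8.90, 9.06, 9.70 and 9.52 in the controls and at 8.89, 8.69, 10.32, 9.68 and 8.81 in ParkinAdi. The 4 libraries of the negative set were above all 6 of the positive set (difference between genotypes 0.067, exact permutation p = 0.944). Tap1, a subunit of the peptide transporter that loads MHC class I, gave 9.63, 9.53, 9.63, 9.72 and 9.61 against 9.49, 9.48, 10.04, 9.48 and 9.38. The other 4 ParkinAdi mice lay below all 5 controls and P3 above them (difference -0.051, exact permutation p = 0.778). Psmb8 (LMP7) differed by -0.041. Without P3 all 3 were below 0, at -0.19 for Psmb9, -0.17 for Tap1 and -0.25 for Psmb8. Psmb9 and Tap1 are divergent neighbours (chr17:34181987-34187764, minus, and chr17:34187553-34197225, plus) whose exons share 212 bases, and whether the counting used strand was not stated. The permutation test was run for all 36 members, its p is given for 13 of them, and the smallest p that 5 against 5 mice allow is 0.00794.

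P3 stood apart within the ParkinAdi group, and it was singled out after its values were seen, so it is described without a test. It held the highest of the 10 values in 22 of 36 members (14 of 26 type I and 8 of 10 type II), where 15.7% of all genes were highest in P3. With each library's trend with gene length removed, it was highest in 23 of 36 members, against 13.5% of all genes. On that scale the median excess of P3 over the mean of the other 9 libraries was 0.57 over the members (0.45 in type I and 0.82 in type II) and 0.013 over all genes. The excess was 1.5 in Zbp1, 1.49 in Iigp1 and 1.24 in Psmb9, and -0.37 in Oasl1. P4 was next highest in 9 of the 22, and its median excess was 0.15. The lowest value was most often in C5, a control, with 9 of 36 members (8.85% of all genes). P2 held 6 of the highest and 6 of the lowest values (21.5% and 14.3% of all genes), and with the length trend removed 1 and 9 (15.9% and 23%).

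**Figure D3:**
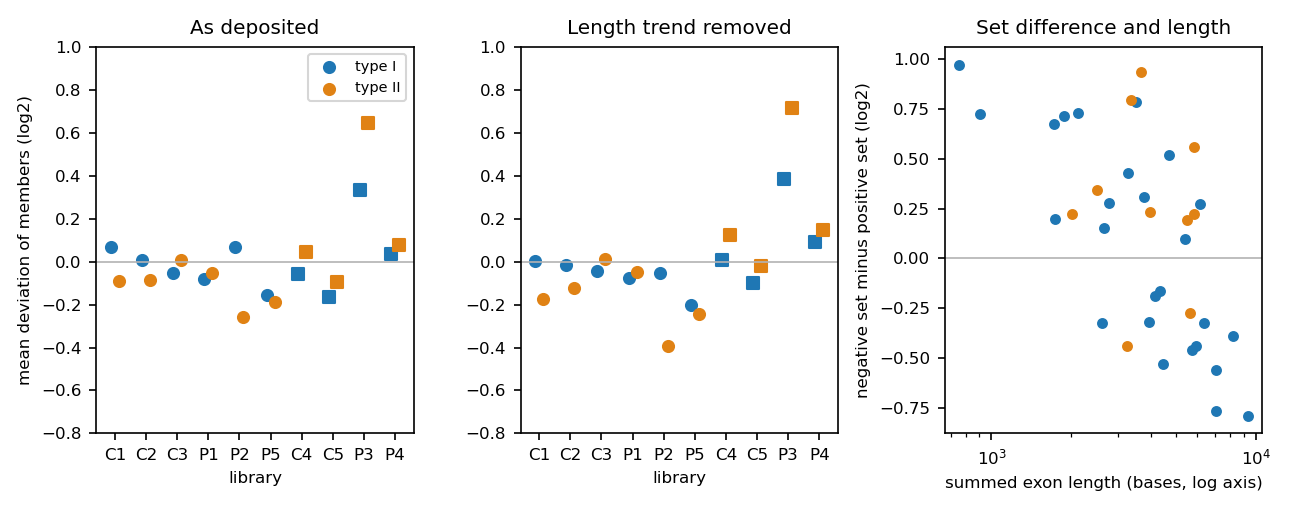
Mean deviation of the 26 type I (blue) and 10 type II (orange) members in each library, as deposited (left) and with the length trend removed (middle), in log2 units, and the difference of each member between library sets against its summed exon length on a log axis (right). P3 is the highest library for both types in both panels, and short members read higher in the negative set.

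Without P3, the genotype comparison of these genes was centred near 0. The median difference became -0.0090 with 18 of 36 members above 0, where 52.5% of all genes were above 0. In 7 members the difference went from above to below 0, and in 2 from below to above. The median was 0.015 in type I members and -0.088 in type II members. No member was higher at an unadjusted p under 0.05 (1.45% of all genes) and 1, Zbp1, was lower (-0.43; 3.67% of all genes). Without P2, the library with the highest epididymal transcripts, the median was 0.13 (type I 0.11, type II 0.20), and without both it was -0.0015. With the length trend removed from all libraries it was 0.065 with 22 members above 0, and -0.029 when P3 was also left out.

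The members' median genotype difference was higher in the negative than in the positive library set. In the negative set (C4 and C5 against P3 and P4) the median was 0.33, with 30 of 36 members above 0 (53.8% of all genes). In the positive set (C1 to C3 against P1, P2 and P5) it was -0.080, with 16 of 36 above 0 (53.8% of all genes). Medians over all genes were 0.025 and 0.018. P2 and P5, the libraries with high epididymal markers, are both in the positive set, and the part of epididymal tissue there was not tested. Both ParkinAdi libraries of the negative set were above both controls in 15 members (25.9% of all genes) and below them in 1, Parp14 (24.2%). In the positive set 0 members had all 3 ParkinAdi libraries above all 3 controls (3.92%), and 4 had them below, namely Tap1, Rtp4, Dhx58 and Zbp1 (5.29%). Within the negative set 12 members were higher at an unadjusted p under 0.05 (7.79% of all genes) and 0 were lower, with the smallest adjusted p at 0.21. At adjusted p 0.05 this set called 23 of all genes (6 higher and 17 lower) and 0 members.

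**Figure D4:**
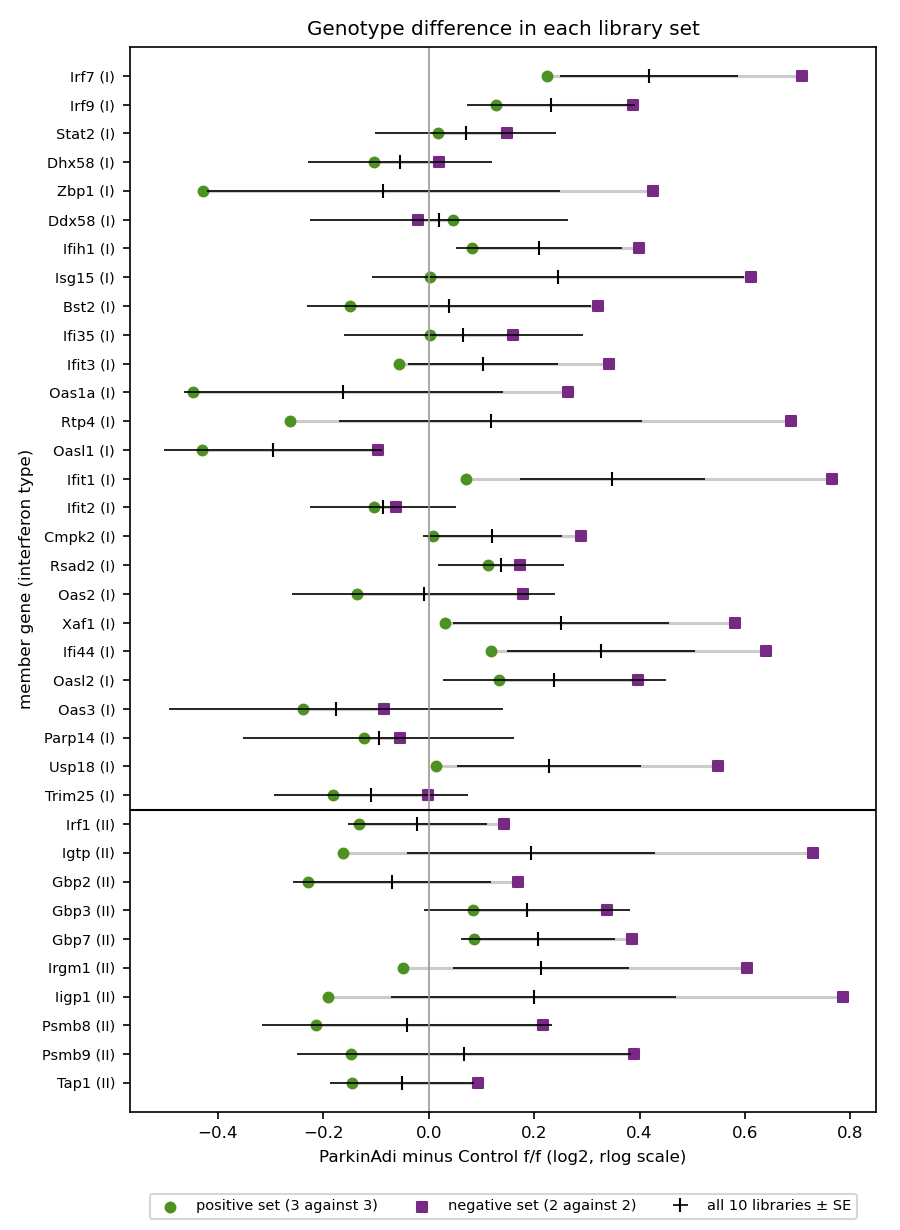
Difference of each member between genotypes on the rlog scale (log2), within the positive set of 3 against 3 libraries (green circles), within the negative set of 2 against 2 (purple squares) and over all 10 libraries with its SE (black). Squares lie right of 0 in 30 of 36 members and circles in 16, and 0 differences passed the adjusted test over all libraries.

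The interaction of genotype and library set, which tests that contrast, was called in 0 members at adjusted p 0.05 (0% of all genes), with 0.93 as the smallest limma adjusted p of a member. At an unadjusted p under 0.05 the difference was larger in the negative set for 6 members (2.69% of all genes) and smaller for 0. These were Ifit1, Rtp4, Xaf1, Iigp1, Igtp and Irgm1. For Rtp4, a chaperone of receptor trafficking that is induced by type I interferon, the difference was 0.69 in the negative and -0.26 in the positive set (interaction 0.95, SE 0.23, limma adjusted p = 0.93). For Iigp1 it was 0.79 and -0.19. Because the negative set holds P3 and only 2 libraries of each genotype, its value and that of P3 cannot be told apart. P4, the other ParkinAdi library of that set, was above both C4 and C5 in 16 of 36 members, and P3 in 32. The share over all genes was not taken for these counts.

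Gene length moved with the library set among the members too. The sets were defined by gene length over all genes, so this relation was largely fixed in advance and is only described. The mean in the negative set was higher than in the positive set in 22 of 36, among them 5 of 5 members under 2000 exon bases, while 8 of 11 members over 5500 bases were lower. Spearman's correlation of the set difference with exon length was -0.62 over the 36 members, as a description, since all points share the same 10 libraries. Parp14, the longest with 9306 bases, was 0.79 lower in the negative set, and Isg15 was 0.97 higher. Each set held both genotypes, so this split is not the genotype contrast.

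Type I and type II members gave close medians over all 10 libraries. The median difference was 0.087 in type I members (17 of 26 above 0) and 0.13 in type II members (6 of 10 above 0), and 1 type I and 0 type II member passed an unadjusted p under 0.05. With P3 included, the SD of the library medians within a genotype was 0.16 for type I and 0.26 for type II members. The mean deviation of the controls ran from -0.16 to 0.066 in type I and from -0.095 to 0.044 in type II members. P3 stood at 0.33 and 0.64. The other ParkinAdi mice ran from -0.16 to 0.070 and from -0.26 to 0.076. Within the negative set the medians were 0.30 and 0.36, and 20 of 26 and 10 of 10 were above 0. Within the positive set they were 0.0026 and -0.15, with 14 of 26 and 2 of 10 above 0. These are counts over lists, and no test compares them.

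In the upstream part of the pathway no listed gene was higher in ParkinAdi at an unadjusted p under 0.05. None of the 21 interferon genes listed had a value analysed here. Of 11 receptor, kinase and Stat genes, 0 passed in either direction, with a median of -0.092. Of 8 feedback inhibitors 0 passed either, and Socs3 differed by -0.18. In the list for DNA and RNA sensing, 0 of 27 were higher (1.46% of all genes) and 3 were lower (3.56%) by that measure. These were Irf5 (-0.61), Unc93b1, the chaperone of endosomal Toll-like receptors (-0.49), and Aim2, a cytosolic DNA sensor (-0.49). Tmem173 (STING) was at 8.49, 8.24, 8.13, 8.15 and 8.12 in the controls and at 8.08, 8.03, 8.09, 7.6 and 7.95 in ParkinAdi. All 5 were below the lowest control (difference -0.28, SE 0.14). The same held for Aim2, so 2 of the 27 sensing genes lay lower without overlap, where 1.06% of all genes did not overlap in either direction. The median difference of this sensing list was -0.12, with 20 of 27 below 0, where 56.9% of all genes were above 0.

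Other genes of each class showed the same absence of adjusted calls. Among 58 further genes mainly induced by type I interferon the median was 0.041 with 36 above 0, and 0 passed an unadjusted p under 0.05 in either direction. Without P3 the median was 0.0034, with 0 higher and 3 lower (1.45% and 3.67% of all genes). The 4 with the smallest p over all libraries were Slfn2 (-0.39), Lgals3bp (-0.26), Nmi (0.27) and Apol9b (0.82), of which Apol9b reached 7.74 in P3 against 4.79 to 6.10 in the other 9. P3 was highest in 21 of these 58 (15.7% of all genes). Among 44 further genes mainly induced by type II interferon the median was -0.12. At an unadjusted p under 0.05 there were 0 higher and 9 lower genes (1.46% and 3.56% of all genes). Without P3 the median was -0.23, with 0 higher and 13 lower (1.45% and 3.67% of all genes). The lower ones with the smallest p were Irf8, Ubd, Fcgr1 and H2-DMb1, genes that myeloid and antigen-presenting cells also express, at -0.66, -1.75, -0.76 and -0.73. P3 was highest in 16 of these 44 (15.7% of all genes), so its excess reached beyond the members.

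Marker genes of other cells moved with P3 and with genotype, and their part in the members' values was not tested. T and NK cell markers had a mean rlog of 5.27 to 5.6 in Control f/f and of 4.95 to 5.41 in 4 ParkinAdi libraries. The mean was 6.01 in P3, which was highest in 17 of 27 (15.7% of all genes). Among them Cd3e was 5.37 in P3 and 4.27 to 5.32 in the other 9, and Trbc2 was 7.91 against 5.89 to 7.37. Without P3, 23 of the 27 genotype differences were below 0, with a median of -0.19, where 52.5% of all genes were above 0. At an unadjusted p under 0.05, 3 of these markers were then lower (3.67% of all genes) and 0 higher (1.45%). B and plasma cell markers had a mean of 7.15 in P3 and of 5.99 to 6.63 elsewhere. Siglech, a defining plasmacytoid dendritic cell gene, was 6.19 in P3 and 6.28 in P4 against 5.0 to 5.70 in the other 8, although the mean of its list in P3 (5.64) lay within the range of the others. Mesothelial markers had a mean of 9.06 in P3, of 6.58 to 8.02 in the controls and of 7.92 to 8.56 in the other ParkinAdi mice. At an unadjusted p under 0.05, 10 of 12 were higher in ParkinAdi (1.46% of all genes), and 3 of 12 without P3 (1.45%). All 12 differences were above 0 with P3 (56.9% of all genes) and without it (52.5%), with medians of 0.96 and 0.80. Macrophage markers were lower in most ParkinAdi libraries. Of 20, 12 were lower in ParkinAdi at an unadjusted p under 0.05 (3.56% of all genes) and 0 higher (1.46%). Their means were 10.59 to 11.32 in Control f/f and 10.15 to 10.76 in ParkinAdi. Cd68 differed by -1.17 (SE 0.21). Adipocyte markers, led by Adipoq, had means of 14.75 to 15.79 in Control f/f and 14.86 to 15.74 in ParkinAdi.

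The AAV experiment adds the level of these genes in pads that all held a vector, as the authors' mean normalized count over pads, which gives no value per pad. That mean was divided by summed exon length and ranked among the 21144 genes found in both tables, because the tables were normalized separately. The members' median percentile was 60.8 in the Control f/f and ParkinAdi table and 65.4 in the AAV8 table. The percentile was higher in the AAV8 table for 30 of 36 members, where 57.8% of all genes ranked higher there. It was so for 23 of 26 type I members, with medians of 54.1 and 60.9, and for 7 of 10 type II members, with 72.1 and 74.5. Oasl1 went from 23.6 to 39.8, Gbp3 from 62.0 to 78.2, Oas3 from 4.76 to 17.6 and Isg15 from 71.3 to 80.3. In Psmb9 (71.2 and 68.2), Rtp4 (68.8 and 66.3), Iigp1 (73.1 and 70.7), Irf9, Irgm1 and Xaf1 the percentile was lower. On this scale Gbp2 and Bst2 ranked highest of the members in both tables and Oas3 lowest. The experiments also differ in age, time on diet, genotype and sequencing, there was no pad without virus, and no test was made, so vector and experiment cannot be told apart. A comparison of AAV8-Nqo1 with AAV8-Control was not made for these genes, since no value per pad was used here.

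**Figure D5:**
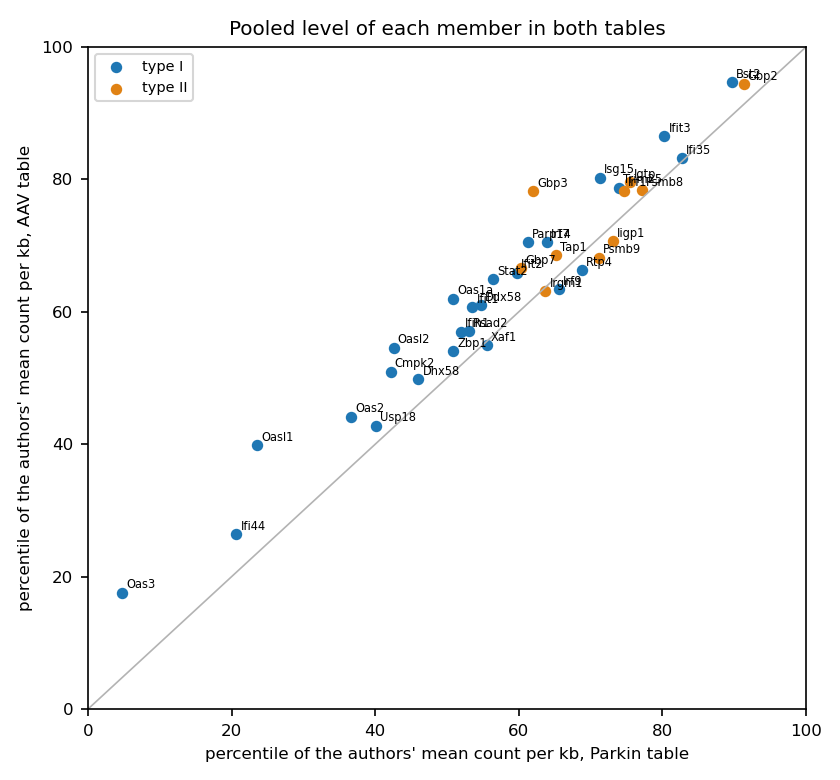
Percentile of the authors' mean count per kilobase of exon among 21144 genes, in the Control f/f and ParkinAdi table (horizontal) and in the AAV8 table (vertical), for type I (blue) and type II (orange) members. Points lie above the diagonal in 30 of 36 members, and there is no error bar since both values are means over libraries.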

How the data were processed

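The members, gene lists and tests were chosen with earlier results of these data known. The authors extracted RNA from frozen eWAT (RIN above 7), made mRNA libraries, sequenced them in 2 pools, ran FastQC on the reads, used Rsubread for alignment and counting on GRCm38 (annotation version 97) and then used DESeq2 1.30.0. For Control f/f and ParkinAdi mice the deposited values of each library are regularized logs (rlog) in log2 units. These carry no counts, so depth is unknown and no count test was made. For both experiments the deposited comparison tables give a mean normalized count over libraries, a signal with no fixed total, which was used. Their log2 fold changes, standard errors, statistics and p-values are the authors' own comparison and were not used.

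Genes with a mean rlog of at least log2 of 10 were tested (19012 genes) in R 4.3.3 by a linear model with moderated variances that follow the mean rlog (limma 3.58.1, two-sided, Benjamini-Hochberg adjustment over all genes, threshold 0.05). Single members were tested by exact permutation of 5 against 5 mice. Members described in full were those with the smallest p in each role and with the highest and lowest difference, and those whose groups did not overlap, of which there were 0. Library sets came from the correlation with exon length, which was removed in an alternative with a spline of 6 degrees of freedom per library. The fit was tested on simulated data. Some items are not reported here. Columns were matched to groups by genotype and are numbered C1 to C5 and P1 to P5 in file order. A figure legend of the study names fewer mice for each genotype than the deposited columns hold, and all columns were used. Each library is 1 mouse, and p-values measure the spread between these mice. Gene positions and exon lengths are from GENCODE M21 (GRCm38), and promoters from RefSeq. Members of gene families with near-identical copies (Ifit, Oas, Oasl, Gbp and immunity-related GTPases) can share reads, and their values are uncertain to that extent. Alternatives were another filter or none, median centring, quantile normalization, other moderation, library weights, the library set as a term, removal of the length trend, and each library left out. Those within a library set, and those leaving out P2 or P3 with another change, were chosen after seeing the data.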

Additional observations from a re-analysis of the deposited data

Results flagged for a closer look

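Within ParkinAdi, 3 values lay far from those of the other 4 mice of the group, among 78 checks (36 members and 3 list means in each genotype), and chance flags about 1 in 20 such groups. Igtp was 9.84 in P3, with a gap to the next mouse of 0.85 of the group's range, and Tap1 was 10.04 in P3 (0.83 of the range). Oas2, a synthetase of the RNase L activator, was 7.87 in P2 (0.74 of the range), the library with the highest epididymal transcripts. It was 7.86 in the control C1 and 7.14 in P5, which also had high epididymal markers. The part of epididymal tissue in this value was not tested.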

How the results depend on the processing

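The count of 0 members called at adjusted p 0.05 held in each alternative run. The smallest limma adjusted p of a member was 0.88 in the main fit. It was 0.25 with the library set as a term and 0.12 with library weights. Over all genes 0 were called, but 11 without C3 (0 to 11 over the libraries left out) 543 with library weights (105 higher and 438 lower), which gave C2 a weight of 12.4, and 23 in the negative set alone (6 higher and 17 lower). The members' median of 0.087 was 0.33 in the negative set alone, where type I members were at 0.30. The type II median of 0.13 was -0.15 in the positive set alone and -0.14 with the length trend removed and P3 left out. Leaving out 1 library at a time gave medians from -0.0090 (without P3) to 0.15 (without P5) over the members, from 0.015 to 0.13 in type I and from -0.088 (without P3) to 0.20 (without P2) in type II members. Library weights put the members' median at -0.031. No paired analysis was possible because the genotypes came from different mice, and columns carry animal numbers and not the replicate numbers of the labels. The left and right pads of an animal in the AAV experiment are paired, but no value per pad was used here. Depth, unknown here, limits Oas3 and Oasl1, which fall out at a minimum mean of 50.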

Other observations

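Among the 29 members with a promoter window, the 15 that held an ISRE core had a median genotype difference of 0.14 and the 14 without one a median of 0.066. In P3, with the length trend removed, the median excess over the other 9 libraries was 0.31 in the former and 0.63 in the latter. These are values only, and no test was made.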
